A study of Mus musculus with 99 samples.

Results

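The peroxiredoxin family and a group of companion antioxidant enzymes were followed through 5 brain regions of juvenile mice. The 10 genes were Prdx1, Prdx2, Prdx3, Prdx4, Prdx5, Prdx6, Sod1, Sod2, Txn1 and Gpx4, found by their GENCODE symbols among the 55335 gene identifiers of the count files, and all 10 were matched. The set was chosen by family and function with measured values in view, the counts of Prdx1 in the nucleus accumbens of males exposed to fentanyl. For that contrast no p-value of a gene is given. Counts of genes called in it stand below as background, and nothing is read from them.

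Pregnant C57BL/6 dams drank fentanyl, a synthetic opioid, at 10 µg/ml from embryonic day 0 until their litters were weaned, while control dams drank plain water. The offspring, labelled wildtype and of juvenile age, were sampled by tissue punch in 5 places: the ventral tegmental area of the midbrain (VTA), the ventrobasal part of the thalamus (VBT), somatosensory cortex (S1, the primary area), cortex of the prelimbic area (PrL), and, in the ventral striatum, the nucleus accumbens (NAc). Each region has 4 groups: females exposed to fentanyl, females exposed to water, males exposed to fentanyl and males exposed to water, with 5 libraries each except for S1 males exposed to water, which have 4. A library is numbered as in its label, and the labels name neither animal nor litter, so the p-values measure the spread between libraries, whose independence is not stated. A punch holds many cell types, and fewer cells of a type cannot be told apart from less RNA per cell.

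Peroxiredoxins are abundant enzymes that reduce hydrogen peroxide and organic peroxides with a reactive cysteine. Prdx1 and Prdx2 work in the cytosol, Prdx3 in the mitochondrial matrix, Prdx4 in the endoplasmic reticulum, and Prdx5 in mitochondria, peroxisomes and the cytosol. Txn1, cytosolic thioredoxin, returns several of them to the reduced state. Prdx6 has a single catalytic cysteine, uses glutathione and in the brain is known mainly from astrocytes. Sod1 in the cytosol and Sod2 in the mitochondrial matrix turn superoxide into hydrogen peroxide, which the peroxidases then remove. Gpx4, a selenoprotein, reduces lipid peroxides within membranes. Part of this system is switched on by the transcription factor Nrf2 (gene Nfe2l2), which binds the antioxidant response element.

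The promoters of Prdx1 and Sod1, 2 of the members described in most detail below, are shown because both hold the core of that element, TGACNNNGC, searched on both strands. The letters are from RefSeq (GRCm38.p6), plus strand, which is the strand of both genes, and end at the base before the annotated start of the gene. Capitals mark the core, which in both lies on the minus strand and so reads as its reverse complement.
Prdx1 chr4:116685349-116685543: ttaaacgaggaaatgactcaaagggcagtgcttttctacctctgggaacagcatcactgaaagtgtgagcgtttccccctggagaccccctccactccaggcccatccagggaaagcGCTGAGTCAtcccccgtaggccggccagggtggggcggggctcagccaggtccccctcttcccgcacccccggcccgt
Sod1 chr16:90220512-90220753: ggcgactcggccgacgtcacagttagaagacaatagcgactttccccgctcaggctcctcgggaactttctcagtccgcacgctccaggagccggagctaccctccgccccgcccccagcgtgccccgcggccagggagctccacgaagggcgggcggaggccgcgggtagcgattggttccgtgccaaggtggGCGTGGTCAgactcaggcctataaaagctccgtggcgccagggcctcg
The core in Prdx1 begins 133 bases before the RefSeq start, and that in Sod1 begins 56 bases before it. The promoter table covers 9 members, of which 2 held the core and 7 did not, in windows from 250 bases before to 50 bases after the start, and Prdx6 had no entry. The same core stood in 4071 of all 32851 promoters (12.4%), so a match is a description of the letters only.

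All positions are on GRCm38 with GENCODE M21, and each member is annotated as protein-coding. Prdx1 (chr4:116685544-116700822, plus strand), Prdx2 (chr8:84969587-84974834, plus strand), Prdx3 (chr19:60864051-60874556, minus strand), Prdx4 (chrX:155323918-155340754, minus strand), Prdx5 (chr19:6906697-6910106, minus strand) and Prdx6 (chr1:161240112-161251219, minus strand) are spread over 5 chromosomes. Sod1 lies at chr16:90220754-90226329 (plus strand), Sod2 at chr17:13006846-13040063 (plus strand), Txn1 at chr4:57943373-57956411 (minus strand) and Gpx4 at chr10:80047166-80056439 (plus strand). Their merged exons span from 1051 bases (Txn1) to 10008 bases (Sod2), beside a median of 3504 over protein-coding genes. The GC content of these exons runs from 43.5% in Prdx1 and 45.5% in Prdx3 to 56.3% in Prdx5 and 58.3% in Gpx4, beside a median of 49.1%.

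Some members resemble or overlap other genes. Gpx4 has 2 near-identical copies in the annotation, one of them Gpx4-ps2 with 99.7% identity over 733 bases. Their counts together came to 23.2% of the Gpx4 count on average. How reads that match both were counted is not given in the sources used here, so the level of Gpx4 is uncertain. The 2 processed pseudogenes of Prdx1 came to 3.8% of its count and the 1 of Sod1 to 1.43%. Exons of Prdx2 overlap those of Rnaseh2a over 177 bases and of Junb over 173 bases on the other strand, and exons of Prdx5 overlap those of Trmt112 over 409 bases. The strand setting of the counting is not given in the sources used here, so it is unknown whether reads in these overlaps were counted for either gene.

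Of the 99 libraries 98 were used, with 23032078 to 52069639 counts over genes and 24079 to 27347 genes detected in each. The library VTA male water 3 stood apart, with 6333 genes detected and 16515545 counts, and is left out of every VTA value below unless it is named. In it Prdx4, Sod1 and Txn1 had 0 counts, which allows up to 0.182 CPM (counts per 1000000 counts over genes; 3 counts, counting error only), while Prdx3 stood at 201 CPM and Sod2 at 376 CPM, above all other VTA water libraries. Defining markers followed the labelled regions: the 6 markers of VTA, mostly of dopamine neurons (Th, Slc6a3, Slc18a2, En1, Pitx3 and Foxa2), summed to 335 to 1730 CPM in VTA libraries and to at most 69.3 CPM elsewhere, with Foxa2 at 0 in all water libraries of S1, PrL and NAc. The 5 thalamic markers summed to 1350 to 4160 CPM in VBT and to at most 715 CPM elsewhere. Striatal markers ranged from 941 to 3270 CPM and cortical markers from 53.7 to 1370 CPM among the NAc libraries, so these libraries differed in their regional markers. The part of tissue makeup in that was not tested.

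In the water libraries, 6 of the 10 members had their highest mean level in VBT (Prdx2, Prdx4, Prdx5, Sod2, Txn1 and Gpx4), 3 in VTA (Prdx1, Prdx3 and Sod1) and 1, Prdx6, in S1, and 7 had their lowest in S1. Levels are CPM of the total over genes, as mean ± SD over the water libraries of both sexes (n = 9 in VTA and S1, n = 10 in the other regions). Differences are log2 values from edgeR's quasi-likelihood test with the sexes averaged, adjusted by Benjamini-Hochberg over all genes and called at an adjusted p under 0.05. That fit scales libraries by TMM, which, against total counts, raised every gene of VBT by a log2 of 0.14 relative to VTA, of PrL by 0.10, of S1 by 0.08 and of NAc by 0.01, so the fitted differences and the CPM levels are on different scales. On total counts, an alternative chosen after seeing the data, the highest and lowest regions of each of the 10 genes were still called apart, but steps between neighbours depended on the scale. The steps VBT to VTA of Prdx2 (log2 0.22, on total counts 0.08) and Gpx4 (0.17, 0.03), VBT to PrL of Prdx1 (0.18, 0.13) and Sod1 (0.16, 0.12), S1 to NAc (0.15, 0.08) and PrL to VTA (0.13, 0.03) of Prdx6 and PrL to NAc of Gpx4 (0.16, 0.07) were called with TMM only. The steps NAc to PrL of Prdx2 (0.02, 0.11) and Sod2 (0.06, 0.15), NAc to S1 of Prdx4 (0.14, 0.22), NAc to VBT of Sod1 (0.09, 0.23) and VTA to S1 of Sod2 (0.11, 0.20) were called on total counts only.

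**Figure D1:**
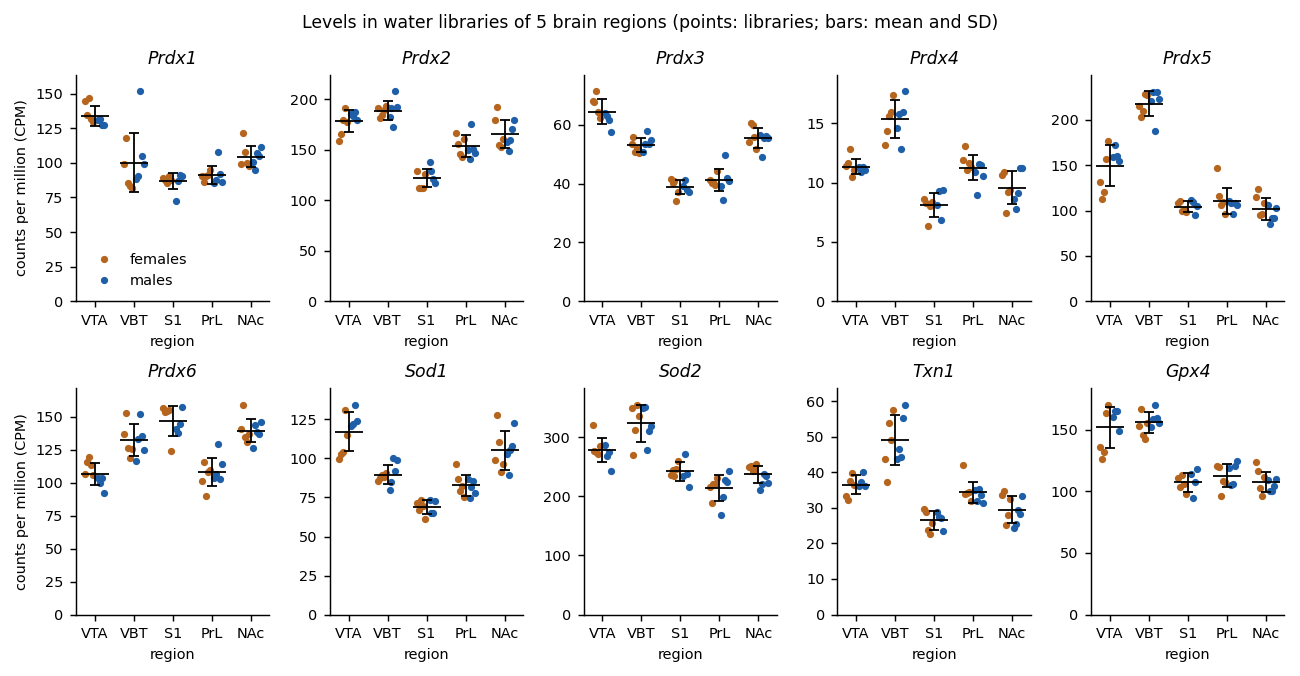
CPM (y axis, linear from 0) of each of the 10 genes in the water libraries of the 5 regions (x axis), with 1 point per library, females in brown and males in blue, and black bars for the mean and SD. Prdx5 stands out for its level in VBT (mean 217 CPM), Prdx6 has its highest mean in S1 (147 CPM), and 1 VBT male library is high for Prdx1 (152 CPM).

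Among the cytosolic and mitochondrial peroxiredoxins, Prdx1 was at 134 ± 7.03 CPM in VTA, 105 ± 7.90 in NAc, 100 ± 21.3 in VBT, 91.1 ± 6.66 in PrL and 86.9 ± 5.68 in S1. The step from VTA to NAc was called (log2 0.35 ± 0.063 SE, edgeR adjusted p = 6.01e-06), whereas NAc and VBT did not differ beyond their spread (edgeR adjusted p = 0.333), nor did PrL and S1 (0.335). The wide SD of Prdx1 in VBT comes with VBT male water 3, at 152 CPM beside 81.9 to 118 CPM in the other 9 libraries. That library also had the highest oligodendrocyte marker sum of the VBT water libraries (47200 CPM, the others 17600 to 36100). Its thalamic marker sum was the lowest (1350 CPM, the others 2160 to 4160). The part of tissue makeup in its Prdx1 level was not tested. Prdx3, the mitochondrial member, had the same order of means, from 64.4 ± 4.11 CPM in VTA through 55.5 ± 3.42 in NAc, 53.2 ± 2.43 in VBT and 41.2 ± 3.86 in PrL to 38.8 ± 2.49 in S1. Its highest and lowest regions differed by a log2 of 0.64 ± 0.042 (edgeR adjusted p = 1.36e-17), and NAc against VBT and PrL against S1 were not called.

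Prdx2, the peroxiredoxin known for its abundance in neurons and red blood cells, was at 189 ± 9.49 CPM in VBT, 179 ± 10.5 in VTA, 166 ± 14.3 in NAc, 154 ± 11.2 in PrL and 122 ± 9.19 in S1. VBT exceeded S1 by a log2 of 0.68 ± 0.048 (edgeR adjusted p = 1.01e-16), and of the neighbours in this order only NAc and PrL were not called. Prdx4 was the scarcest member, at 15.4 ± 1.61 CPM in VBT, 11.3 ± 0.660 in VTA, 11.3 ± 1.05 in PrL, 9.57 ± 1.38 in NAc and 8.16 ± 1.01 in S1. VTA and PrL were not distinguished for Prdx4, nor were NAc and S1, while VBT exceeded S1 by a log2 of 0.96 ± 0.078 (edgeR adjusted p = 1.04e-14).

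Prdx5 had the widest regional range of the 10 genes: 217 ± 13.9 CPM in VBT, 149 ± 22.5 in VTA, 110 ± 14.2 in PrL, 104 ± 5.97 in S1 and 102 ± 11.9 in NAc. VBT exceeded NAc by a log2 of 1.24 ± 0.075 (edgeR adjusted p = 7.38e-19), and neither PrL and S1 nor S1 and NAc were distinguished. Prdx6 ran the other way, highest in S1 (147 ± 11.4 CPM), then NAc (139 ± 8.92), VBT (132 ± 12.4) and PrL (108 ± 10.3), and lowest in VTA (106 ± 8.58). The log2 difference of Prdx6 between S1 and VTA was 0.56 ± 0.049 (edgeR adjusted p = 1.41e-13). The astrocyte markers, in contrast, summed to 2540 ± 201 CPM in VTA and 2010 ± 203 CPM in S1, so the order of Prdx6 was not that of this marker list.

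The superoxide dismutases differed from each other in their order. Sod1 was at 117 ± 12.6 CPM in VTA, 105 ± 12.6 in NAc, 89.7 ± 6.22 in VBT, 82.7 ± 6.61 in PrL and 68.7 ± 4.44 in S1, with VTA above S1 by a log2 of 0.69 ± 0.058 (edgeR adjusted p = 4.14e-14) and only NAc and VBT not distinguished. Sod2 was at 324 ± 30.9 CPM in VBT, 278 ± 20.6 in VTA, 243 ± 16.0 in S1, 237 ± 14.7 in NAc and 214 ± 22.3 in PrL. Among its neighbours in the TMM-scaled fit only the step from VBT to VTA was called (log2 0.37 ± 0.063, edgeR adjusted p = 3.3e-06; 0.22 ± 0.056 and 0.00076 on total counts).

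Txn1, the electron donor of several peroxiredoxins, was at 49.1 ± 7.14 CPM in VBT, 36.5 ± 2.64 in VTA, 34.4 ± 2.995 in PrL, 29.5 ± 3.86 in NAc and 26.4 ± 2.60 in S1. VBT exceeded S1 by a log2 of 0.95 ± 0.079 (edgeR adjusted p = 2.05e-14), and neither VTA and PrL nor NAc and S1 were distinguished. Gpx4 was at 156 ± 8.48 CPM in VBT, 152 ± 16.7 in VTA, 112 ± 9.18 in PrL, 107 ± 8.41 in NAc and 107 ± 7.81 in S1. VBT exceeded S1 by a log2 of 0.60 ± 0.057 (edgeR adjusted p = 1.63e-12), and NAc and S1 were not distinguished.

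The number of members that differed between 2 regions was read against the share of all 21468 genes that did. VBT and PrL differed for all 10 members, each higher in VBT, where 68.4% of all genes were called. VTA differed from NAc for 10 members, 9 of them higher in VTA (background 64.8%), and from VBT for 10, with 3 higher in VTA (52.5%). It differed from S1 for 9, with 8 higher in VTA (67.6%), and from PrL for 8, with 7 higher in VTA (66.5%). VBT exceeded S1 for 9 members (68.0%) and NAc for 6 (67.8%). S1 and PrL differed for 6 members, 4 higher in PrL (37.3%). PrL and NAc differed for 7, with 4 higher in PrL (50.3%), and S1 and NAc for 5, with 4 higher in NAc (53.3%). On total counts the split between directions moved for PrL and NAc (2 higher in PrL, 6 in NAc), S1 and NAc (0 and 5), VTA and PrL (7 and 0) and VBT and NAc (6 and 1). These are read only as counts, since a large part of all genes differed between the regions.

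Levels between genes were compared per kilobase of merged exons, which join all annotated transcripts of a gene. The order between genes therefore depends on the annotation, and that of Gpx4 also on its near-identical copies. In VTA water libraries Gpx4 (88.0 ± 9.69 CPM per kb), Prdx5 (69.8 ± 10.5) and Prdx2 (58.6 ± 3.46) led, Prdx1 (44.0 ± 2.31) and Prdx3 (43.6 ± 2.78) followed, and Prdx4 was lowest (5.39 ± 0.313). In VBT Prdx5 was highest at 102 ± 6.48 CPM per kb, ahead of Gpx4 at 90.4 ± 4.92. Sod2 had the highest CPM but, with its long exons, 32.3 ± 3.09 CPM per kb in VBT and 27.8 ± 2.06 in VTA.

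Across the 48 water libraries, Pearson's r of log2(CPM + 1) for the 45 pairs of members ran from -0.29 to 0.90 with a median of 0.48, and 37 were positive. Within groups of the same region and sex the median was 0.16 (range -0.34 to 0.64). Prdx5 and Gpx4 correlated at 0.88 across and 0.59 within groups, whereas Prdx1 and Prdx6 went from -0.17 across to 0.60 within. These are descriptions. Region and depth vary across the water libraries, and Prdx5 and Gpx4 share a high GC content. The genes most like each member across the same libraries, among 10175 protein-coding genes with a mean of at least 10 CPM, were Idh1 (r = 0.912) and Mpp5 (0.886) for Prdx1, and Ndufa11 (0.932) and Coro1c (0.929) for Prdx2. They were Nrsn2 (0.946) and Cct3 (0.943) for Prdx3, Hcn4 (0.877) and Prep (0.874) for Prdx4, and Cadm4 (0.966) and Fez2 (0.964) for Prdx5. They were Scrg1 (0.827) and Dtna (0.796) for Prdx6, Eef1b2 (0.933) and Top1mt (0.919) for Sod1. For the last 3 they were Ghitm (0.939) and Gfm1 (0.917) for Sod2, Tubg1 (0.913) and Rab4a (0.910) for Txn1, and Lzts2 (0.958) and Urm1 (0.953) for Gpx4.

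Fentanyl was then compared with water within each region and sex. In VTA males Prdx1, Prdx3, Prdx6 and Sod2 were higher after fentanyl and Sod1 and Gpx4 were lower, 6 of 10 members, in a contrast in which 22.0% of all 19822 genes were called (11.0% higher and 11.0% lower). The CPM of the groups did not overlap for 7 members, where 22.4% of all genes did not overlap.

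**Figure D2:**
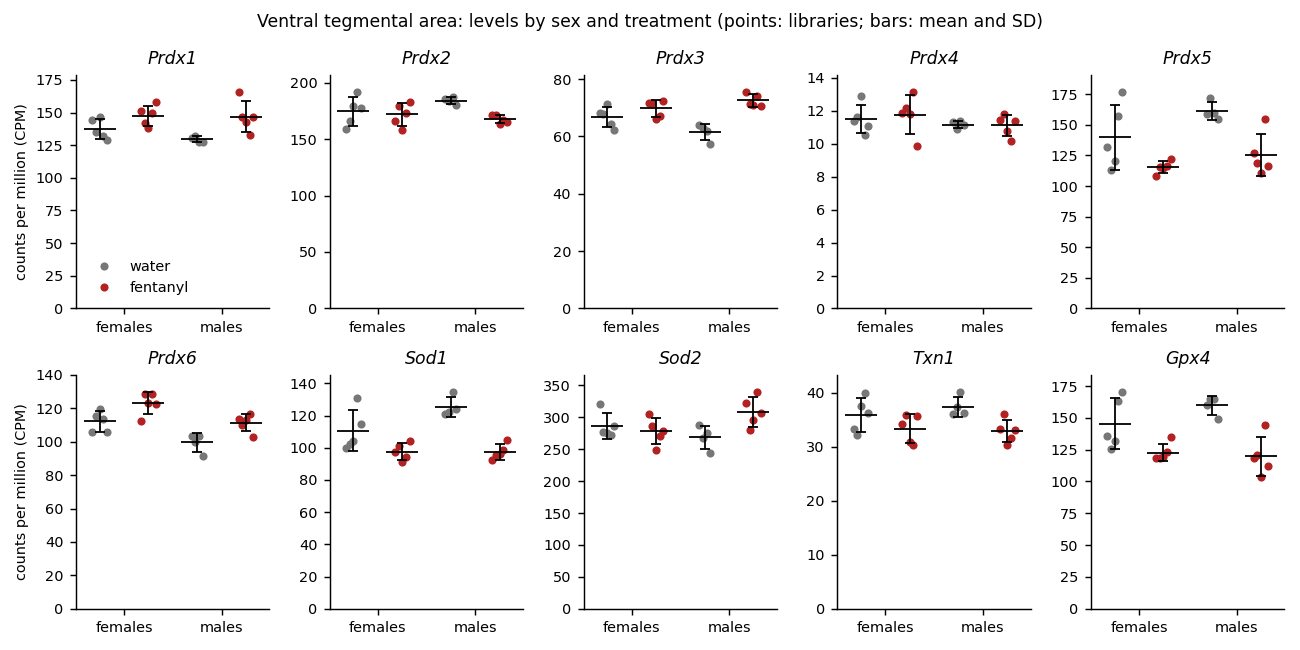
CPM (y axis, linear from 0) of the 10 genes in VTA libraries by sex (x axis), water in grey and fentanyl in red, with 1 point per library and black bars for the mean and SD. In males the points of Sod1 separate (92.1 to 105 CPM with fentanyl, 121 to 134 with water), whereas in females they overlap.

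Prdx1 in VTA males read 131, 132, 128 and 128 CPM in water libraries 1, 2, 4 and 5, and 166, 146, 143, 133 and 146 CPM in fentanyl libraries 1 to 5. Every fentanyl library lay above every water library, the nearest by less than 1 CPM, and the log2 difference was 0.22 ± 0.067 (edgeR adjusted p = 0.0234). Prdx3 read 64.1, 63.0, 61.7 and 57.5 CPM with water and 75.5, 71.3, 70.8, 74.2 and 70.7 CPM with fentanyl. These groups were also apart, by a log2 of 0.27 ± 0.060 (edgeR adjusted p = 0.00441). Prdx6 read 104, 99.7, 103 and 91.7 CPM with water and 113, 110, 113, 117 and 103 CPM with fentanyl, a log2 of 0.20 ± 0.060 (edgeR adjusted p = 0.0214), and its groups overlapped at fentanyl library 5. Sod2 read 288, 268, 275 and 243 CPM with water and 322, 280, 295, 340 and 307 CPM with fentanyl, with overlap at fentanyl library 2, and its log2 difference was 0.24 ± 0.084 (edgeR adjusted p = 0.046).

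Sod1 fell, from 121, 122, 134 and 124 CPM with water to 92.1, 95.4, 96.0, 98.5 and 105 CPM with fentanyl. All fentanyl libraries lay below all water libraries, by a log2 of -0.33 ± 0.069 (edgeR adjusted p = 0.00402). Gpx4 read 160, 165, 165 and 149 CPM with water and 119, 121, 104, 144 and 112 CPM with fentanyl, a log2 of -0.37 ± 0.10 (edgeR adjusted p = 0.0142), also without overlap. Prdx5 was at 161 ± 7.34 CPM with water (n = 4) and 125 ± 17.2 with fentanyl (n = 5) without overlap. It missed the threshold (log2 -0.32 ± 0.12, edgeR adjusted p = 0.0649), as did Txn1 (log2 -0.15, 0.153) and Prdx2 (log2 -0.10, 0.255). Prdx4 was at 11.1 ± 0.641 CPM with fentanyl and 11.2 ± 0.227 with water. The median log2 difference over the 10 members was -0.03, beside 0.002 over all genes.

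These 6 calls did not rest equally on all libraries. Prdx3, Sod1 and Gpx4 passed in all 19 fits that left out 1 library. Prdx6 did not pass without VTA male fentanyl 4 (edgeR adjusted p = 0.0576) or male water 5 (0.0935). Prdx1 did not pass without male fentanyl 1 (0.055), male water 4 (0.0757) or male water 5 (0.069). The count fell to 3 of 10 without male water 5. Sod2 passed in 9 of the 19 fits (highest edgeR adjusted p = 0.161, without male water 5). With VTA male water 3 included no member was called, Sod1 stood at -0.01, and Prdx3 turned to -0.10.

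Spearman's rho across genes between a gene's GC content and a library's departure from the VTA mean was -0.409 to -0.077 in the male fentanyl libraries and 0.452 to 0.579 in the male water libraries (exact permutation p = 0.0159, two-sided, the smallest that 5 against 4 libraries allows, 0.254 after adjustment over 160 measures). With an offset for GC content fitted to each library, Prdx1 went from 0.22 to 0.02, Prdx3 from 0.27 to 0.12, Prdx5 from -0.32 to -0.07 and Gpx4 from -0.37 to -0.04, none of them called. Sod2 went from 0.24 to 0.21 and lost its call (edgeR adjusted p = 0.159), and Txn1 went from -0.15 to -0.24 (0.0977). Sod1 (-0.38 ± 0.073, edgeR adjusted p = 0.012) and Prdx6 (0.24 ± 0.055, edgeR adjusted p = 0.0234) were at least as far from 0 as without the offset. Both remained called, in a fit that called 3.13% of all genes. Neuron markers summed to 3660 ± 148 CPM with fentanyl and 3320 ± 116 with water (exact permutation p = 0.0159, adjusted 0.254). The VTA markers summed to 335 to 1240 CPM with fentanyl and 864 to 1500 CPM with water, and the astrocyte markers to 2150 to 2950 and 2320 to 2730 CPM. Of the 12 marker lists 5 held called genes: choroid plexus (2 of 5 lower, median log2 -2.56), microglia (2 of 6 higher, 1 lower), endothelium (1 of 5 lower), neuron (1 of 5 lower) and thalamus (1 of 5 higher). The red blood cell list, with none called, had a median of 0.90. The rho of exon length was 0.0759 ± 0.0840 with fentanyl and -0.127 ± 0.0251 with water (exact permutation p = 0.0159, adjusted 0.254). Genes detected came to 25500 ± 492 with fentanyl and 26300 ± 602 with water (exact permutation p = 0.0476, adjusted 0.423). The part of these library and marker differences in the results was not tested.

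**Figure D3:**
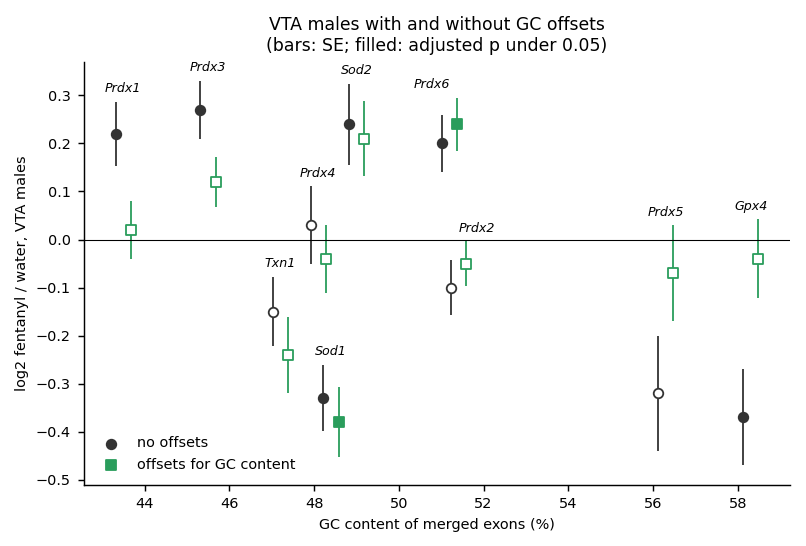
Log2 difference between fentanyl and water in VTA males (y axis) against the GC content of each gene's merged exons in percent (x axis), without offsets (black circles) and with offsets for GC content (green squares), bars showing the SE and filled symbols an adjusted p under 0.05. Prdx1 and Gpx4 at the ends of the axis move to near 0 (0.02 and -0.04), and Sod1 and Prdx6 do not.

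In VTA females no member was called, nor any other gene by edgeR (0.0% of 19822), although 4 members and 2518 genes had an unadjusted p under 0.05 and the Wald test of DESeq2 called 88 genes, no member among them. Sod1 was the member with the smallest p, at 97.6 ± 5.08 CPM with fentanyl and 111 ± 12.8 with water (n = 5 each; log2 -0.19 ± 0.066, edgeR adjusted p = 0.287). Its water libraries ran from 99.7 to 131 CPM and its fentanyl libraries from 91.4 to 104 CPM, so the groups overlapped, as for all 10 members (1.61% of genes did not overlap). On the GC measure the female water libraries ran from -0.276 to 0.585 and the female fentanyl libraries from -0.468 to 0.0072. Their microglia markers summed to 257 to 283 CPM with fentanyl and 214 to 262 with water (exact permutation p = 0.0159, 0.254 adjusted). The difference between the sexes was called by edgeR for no member or other gene (0.0%), with 2256 genes at an unadjusted p under 0.05 and 7 genes called by DESeq2, no member among them. Of the members 2 of 10 were at an unadjusted p under 0.05, Prdx3 (male minus female log2 0.23 ± 0.082, edgeR adjusted p = 0.42) and Sod2 (0.30 ± 0.12, edgeR adjusted p = 0.42). With the sexes averaged, Prdx1 (0.15), Prdx3 (0.16) and Prdx6 (0.16) were higher and Sod1 (-0.26), Gpx4 (-0.32) and Prdx5 (-0.31) lower, with edgeR adjusted p from 0.00156 (Sod1) to 0.02 (Prdx1), where 23.1% of all genes were called. With GC offsets 3 members were called in the average: Sod1 (-0.30, edgeR adjusted p = 0.00333), Prdx6 (0.19, 0.00714) and Txn1 (-0.20, 0.0435), in a fit that called 3.77% of all genes.

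Other genes of the antioxidant pathways, 59 in lists for the thioredoxin and glutathione systems, removal of superoxide and peroxide, Nrf2 and its targets, selenoprotein synthesis, superoxide sources and metal binding, were read in the same fits. In VTA males 10 of these genes rose and 8 fell (30.5%, beside 22.0% of all genes), and their median log2 difference was -0.04. The lists were chosen with earlier results of these data known, so their shares in any region are given only as counts. Of the 19 genes of the glutathione system 6 rose and 1 fell, of the 13 of the thioredoxin system 1 rose and 1 fell, of the 13 of Nrf2 and its targets 3 rose and 1 fell, and of the 3 metallothioneins 2 fell. Of the 5 other genes of superoxide and peroxide removal 1 rose and 2 fell (median log2 -0.20), of the 7 of selenoprotein synthesis 1 rose and 1 fell, and of the 4 superoxide sources none was called; a gene can stand in more than 1 list. In VTA females 0 of the 59 were called.

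Oxr1, which protects cells against oxidative damage, rose in VTA males from 198 ± 9.77 to 275 ± 24.0 CPM (log2 0.51 ± 0.11, edgeR adjusted p = 0.00384). Gclm, the modifier subunit of the enzyme that begins glutathione synthesis, rose from 86.3 ± 5.17 to 115 ± 14.6 CPM (log2 0.45 ± 0.10, edgeR adjusted p = 0.00512). Selenow, a small selenoprotein, fell from 233 ± 4.13 to 148 ± 11.1 CPM (log2 -0.61 ± 0.10, edgeR adjusted p = 0.00222). For all of these n was 4 with water and 5 with fentanyl, and none overlapped between the groups. Mt3, the metallothionein of the brain, fell from 109 ± 2.85 to 48.8 ± 5.70 CPM, also without overlap (log2 -1.12 ± 0.20, edgeR adjusted p = 0.00259). With GC offsets 1 gene of the 59 rose and 2 fell (5.08%): Mt3 (-0.78, edgeR adjusted p = 0.0139) and Selenow (-0.33, 0.0127) remained called, and Oxr1 (0.31, 0.0745) and Gclm (0.31, 0.0602) did not. With the sexes averaged 7 rose and 9 fell (27.1%, beside 23.1% of all genes; 2 and 3, or 8.47%, with GC offsets), Nfe2l2 among those that rose (log2 0.31 ± 0.071, edgeR adjusted p = 0.00473; 0.20 and 0.0801 with GC offsets).

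In S1 the member called was Sod1, higher after fentanyl with the sexes averaged. In females it read 71.4, 67.1, 73.2, 69.2 and 60.9 CPM in water libraries 1 to 5 and 99.5, 85.8, 80.8, 84.7 and 85.6 CPM in fentanyl libraries 1 to 5. All fentanyl libraries lay above all water libraries. The groups did not overlap, in either direction, for 1 of 10 members and for 4.22% of all genes. The log2 difference of 0.35 ± 0.077 missed the threshold (edgeR adjusted p = 0.0681), so 0 members were called where 0.142% of 19748 genes were. In males Sod1 read 73.7, 64.8, 65.3 and 72.6 CPM in water libraries 1, 3, 4 and 5 and 80.4, 82.2, 83.9, 73.3 and 60.5 CPM with fentanyl, with overlap as for all 10 members (1.72% of genes did not overlap; log2 0.16 ± 0.082, edgeR adjusted p = 0.713). No gene was called by edgeR in males, with 1412 at an unadjusted p under 0.05 and none of them a member, nor by DESeq2. The difference between the sexes for Sod1 was -0.19 ± 0.11 (edgeR adjusted p = 0.957). With the sexes averaged Sod1 rose by a log2 of 0.25 ± 0.056 (edgeR adjusted p = 0.0312), 1 of 10 members where 1.03% of all genes were called.

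That call lay close to the threshold. It was kept in 7 of the 19 fits that left out 1 library and lost without female fentanyl 1 or 2, female water 2, 3, 4 or 5, male fentanyl 1, 2 or 3, or male water 3, 4 or 5, with an edgeR adjusted p of at most 0.0907. In females the call was gained without female fentanyl 3, male fentanyl 3 or male fentanyl 5, the last with the smallest edgeR adjusted p (0.00734). The other S1 members were uncalled in both sexes. In females Prdx4 was at 9.96 ± 1.45 CPM with fentanyl and 7.93 ± 0.914 with water (log2 0.32 ± 0.12, edgeR adjusted p = 0.257), and Prdx5, Prdx2 and Gpx4 had log2 differences of 0.18, 0.17 and 0.16, while Prdx6 and Sod2 were at -0.05 and -0.07. In the female libraries the rho of exon length was -0.127 ± 0.0793 with fentanyl and 0.107 ± 0.0580 with water (exact permutation p = 0.00794, the smallest that 5 against 5 allows, 0.254 adjusted). That of GC content was 0.15 ± 0.164 and -0.193 ± 0.158 (exact permutation p = 0.0159, 0.254 adjusted). Sod1 kept its call in the average of the sexes with offsets for exon length or for GC content and lost it with the share of reads outside exons as a covariate. Among the 12 marker lists, 1 of 5 cortical and 1 of 5 striatal genes were called higher in the S1 average, and the oligodendrocyte list, with none called, had a median log2 of 0.44 (0.50 in females). The oligodendrocyte markers summed to 2580 to 14100 CPM with fentanyl and 3360 to 6250 with water in females, and to 2390 to 7870 and 2760 to 4110 CPM in males. The part of these library and marker differences was not tested.

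Of the 58 other pathway genes tested in S1, 2 rose and none fell with the sexes averaged (3.45%, beside 1.03% of all genes), and none was called in either sex alone. Gpx3, the secreted glutathione peroxidase, was at 3.79 ± 0.921 CPM with fentanyl and 1.99 ± 0.383 with water in females and at 2.99 ± 1.01 and 1.90 ± 0.176 in males (log2 0.79 ± 0.16, edgeR adjusted p = 0.0202). Mt3 was at 83.9 ± 4.24 and 51.2 ± 8.56 CPM in females and at 65.2 ± 20.2 and 50.2 ± 3.65 in males (log2 0.55 ± 0.12, edgeR adjusted p = 0.0416), and was not called with the share of reads outside exons as a covariate (0.53, edgeR adjusted p = 0.0965).

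**Figure D4:**
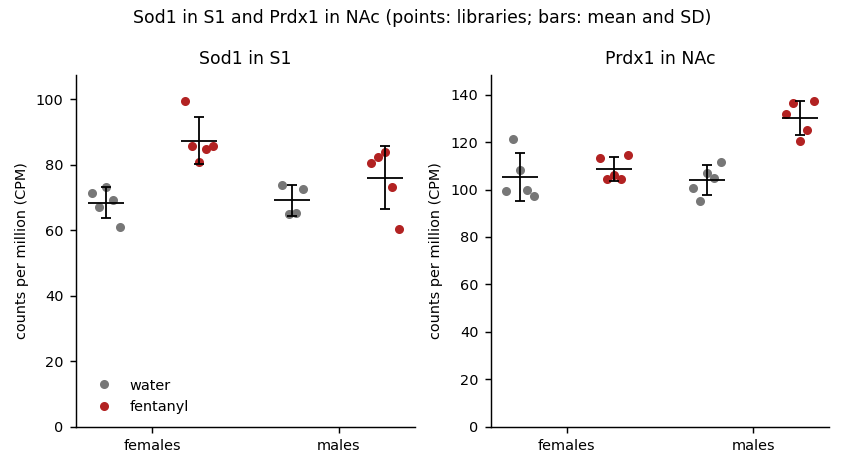
CPM (y axis, linear from 0) of Sod1 in S1 and of Prdx1 in NAc by sex (x axis), water in grey and fentanyl in red, with 1 point per library and black bars for the mean and SD. The female points of Sod1 do not overlap (60.9 to 73.2 CPM with water, 80.8 to 99.5 with fentanyl), nor do the male points of Prdx1 (95.03 to 112 CPM with water, 120 to 137 with fentanyl).

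In NAc males, the contrast behind the choice of these genes, Prdx1 read 101, 95.03, 107, 105 and 112 CPM in water libraries 1 to 5 and 132, 136, 120, 125 and 137 CPM in fentanyl libraries 1 to 5. The groups did not overlap, and the log2 difference was 0.36 ± 0.058. Because these values led to the choice of the genes, the share of all 19480 genes called in this contrast (0.662%, Prdx1 the 1 member among them) and the share without overlap (3.5%, again with 1 member) are given only as background, and nothing is read from them. Of the others Sod1 was at 124 ± 14.1 CPM with fentanyl and 106 ± 12.01 with water (log2 0.26), Txn1 at 32.9 ± 7.04 and 28.2 ± 3.57 (0.25), Prdx4 at 10.9 ± 1.94 and 9.62 ± 1.56 (0.21) and Prdx5 at 107 ± 12.1 and 95.6 ± 8.74 (0.20), and Sod2 was the only one below 0 (-0.01). The median over members was 0.18, beside -0.005 over all genes.

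In NAc females Prdx1 was at 109 ± 4.98 CPM with fentanyl and 105 ± 9.94 with water (log2 0.04 ± 0.058, edgeR adjusted p = 0.849). No member was without overlap (0.755% of genes were). No member and no other gene was called by edgeR (0.0% of genes), with 1760 genes and 2 members at an unadjusted p under 0.05 and 16 genes called by DESeq2, no member among them. Those 2 were Sod2, at 226 ± 13.2 CPM with fentanyl and 249 ± 4.17 with water (log2 -0.15 ± 0.058, edgeR adjusted p = 0.544), and Prdx5 (log2 -0.20 ± 0.089, edgeR adjusted p = 0.544). The male minus female difference was above 0 for all 10 members, with a median of 0.24 and values from 0.05 (Prdx6) to 0.42 (Prdx4 and Txn1), which again holds the contrast used to choose the genes. In the male libraries the rho of exon length was -0.158 ± 0.122 with fentanyl and 0.108 ± 0.132 with water (exact permutation p = 0.0238, 0.346 adjusted). Striatal markers summed to 1420 to 3270 CPM with fentanyl and 1390 to 2230 CPM with water in males, and to 1850 to 2700 and 941 to 2480 CPM in females (exact permutation p = 0.0476, 0.423 adjusted). In females the neuron markers ran from 2630 to 3650 CPM with fentanyl and 3130 to 4670 with water (exact permutation p = 0.0635, 0.423 adjusted), and the cortical markers from 53.7 to 821 and 247 to 1370 CPM (0.0873, 0.508 adjusted). The female microglia markers ran from 319 to 379 and 281 to 339 CPM (exact permutation p = 0.0397, 0.423 adjusted), and genes detected also gave 0.0397. Their part in the values was not tested. In NAc males Fth1, the heavy chain of the iron store ferritin, and Gstm5, a glutathione transferase, had log2 differences of 0.39 ± 0.065 and 0.35 ± 0.068. They are named because they passed the threshold there, 2 of 58 other pathway genes (3.45%, beside 0.662% of all genes). Nothing is read from that count either.

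In PrL and VBT no member was called in any contrast, and for none were the groups free of overlap, where 2.18% of genes were in PrL females, 2.0% in PrL males, 2.06% in VBT females and 0.967% in VBT males. In PrL females 9 of 10 members lay above 0 with a median log2 of 0.06, beside -0.008 over all genes, and 0.021% of 19074 genes were called. Prdx3 had the smallest p, at 45.2 ± 2.81 CPM with fentanyl and 41.2 ± 1.89 with water (log2 0.17 ± 0.061, edgeR adjusted p = 0.401), followed by Prdx1 (log2 0.14 ± 0.054, edgeR adjusted p = 0.423). In PrL males it was Prdx6, at 99.05 ± 11.97 and 111 ± 11.0 CPM (log2 -0.14 ± 0.079, edgeR adjusted p = 0.472), where edgeR called 0 genes and DESeq2 28; an unadjusted p under 0.05 was found for 2284 genes, none of them a member. With the sexes averaged 0.697% of genes were called. Reads outside exons, as a share of those given to a gene or not, came in PrL to 11.0% ± 0.678 with fentanyl against 13.3% ± 0.850 with water in females and 11.8% ± 0.732 against 13.7% ± 0.722 in males (exact permutation p = 0.00794 and 0.0159, both 0.254 adjusted). Neuron markers of the PrL females summed to 5600 ± 328 CPM with fentanyl and 5100 ± 185 with water (exact permutation p = 0.0159, 0.254 adjusted). Olfactory bulb markers summed to 5.63 to 8.29 CPM with fentanyl and 4.52 to 163 with water in females. In males they summed to 4.03 to 8.6 and 7.25 to 313 CPM. No gene of the 12 marker lists was called in PrL, but the olfactory bulb markers had a median log2 of -2.81 with the sexes averaged. Their part in the values was not tested.

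In VBT no member had an unadjusted p under 0.05. In females the smallest p belonged to Prdx3, at 50.5 ± 1.88 CPM with fentanyl and 52.5 ± 2.22 with water (log2 -0.06 ± 0.036, edgeR adjusted p = 0.719), and in males to Gpx4, at 169 ± 12.4 and 159 ± 6.48 CPM (log2 0.07 ± 0.048, edgeR adjusted p = 0.74). No gene was called by edgeR in VBT (0.0% of 18923 in each contrast), with 1487 genes in females and 1646 in males at an unadjusted p under 0.05 and no member among them, and the Wald test of DESeq2 called 31 and 52 genes, and 109 in male minus female. The striatal markers of the VBT females summed to 85.7 to 95.2 CPM with fentanyl and 98.9 to 424 with water (exact permutation p = 0.00794, 0.254 adjusted). Their choroid plexus markers summed to 5.57 to 9.47 CPM with fentanyl and 6.64 to 4530 with water, the highest in VBT female water 2. The part of these marker differences was not tested. Prdx1 had log2 differences of -0.02 ± 0.12 in females and -0.07 ± 0.12 in males, the latter with the high VBT male water 3 among the controls.

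**Figure D5:**
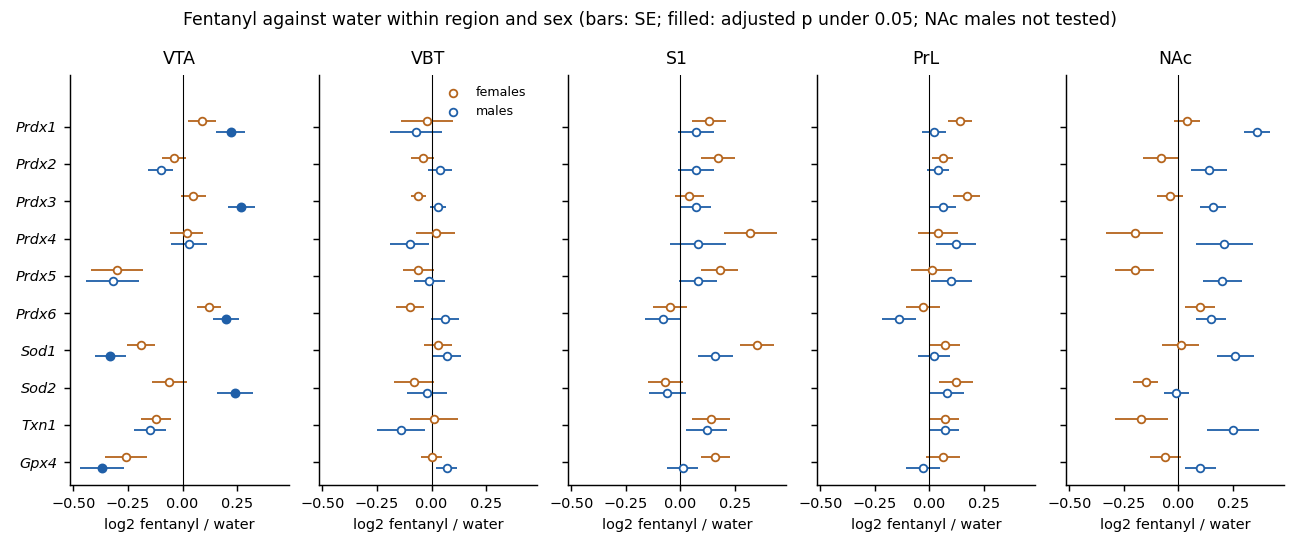
Log2 difference between fentanyl and water (x axis) of the 10 genes (y axis) in the 5 regions, females in brown and males in blue, with bars for the SE and filled points for an adjusted p under 0.05. Filled points appear in VTA males (Prdx1, Prdx3, Prdx6, Sod1, Sod2 and Gpx4). The NAc male points, which include the values used to choose the genes, are drawn open and carry no test.

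Sod1 thus had opposite signs in 2 regions, -0.26 ± 0.048 in VTA and 0.25 ± 0.056 in S1 with the sexes averaged, both called and each against its own water libraries. The S1 call was lost in 12 of 19 fits without 1 library and with the outside-exon covariate. The difference between the regions was not tested. Gpx4 had log2 differences of -0.32 in VTA and 0.09 in S1, and Prdx5 of -0.31 and 0.13, of which the S1 values were not called. With GC offsets the VTA values were -0.08 (edgeR adjusted p = 0.492) for Gpx4 and -0.13 (0.36) for Prdx5, both uncalled.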

How the data were processed

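RNA from tissue punches (Trizol and a column kit with DNase) was made into SMART-Seq v4 libraries from 10 ng, per the labels' protocols. The deposited values are raw read counts per gene, made with HTSeq on GRCm38, per the submitters' processing notes; the aligner, annotation release and strand setting are not given in the sources used here. The 5 closing lines of each file, for reads not given to a gene, stayed out of totals and tests. The 10 members and all lists were chosen with earlier results of these data known.

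Each region was fitted alone in edgeR 4.0.16 (R 4.3.3) with TMM scaling, its expression filter, the 4 groups of sex and treatment and the quasi-likelihood test, adjusted by Benjamini-Hochberg over all genes. Water libraries were compared across regions in 1 fit, also on total counts without TMM (added after seeing the data). CPM is the count per 1000000 counts over genes. Library measures were compared by two-sided exact permutation tests (scipy 1.17.1), and near-identical copies were sought with blastn 2.17.0. The VTA library with under 10000 genes detected was left out. Calls need an adjusted p under 0.05. Alternatives were size factors and the Wald test of DESeq2 1.42.0, no filter, a replicate block, offsets for GC content or exon length, the share of reads outside exons as covariate, and leaving out each library. Methods were tested on simulated data.

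All members are named; full statistics go to members called or, where none was, to that with the smallest p. Pathway genes named are at most the 2 called with the smallest p per direction, and the 2 genes most like each member are named. Further genes were named after their values were seen. Depth was 23032078 to 52069639 counts per library. Counting error is small for most members and largest for Prdx4, with as few as 205 counts in a water library of S1.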

Additional observations from a re-analysis of the deposited data

Results flagged for a closer look

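Among 200 groups of member values, 14 held 1 library far from the rest of its group; chance gives about 10 (1 in 20). Values are CPM, with the range of the other libraries of the group. In VBT, male water 3 was high for Prdx1 (152, the others 88.0 to 105) and low for Prdx5 (188, the others 220 to 231), and female fentanyl 3 was low for Prdx3 (47.3, the others 50.8 to 52.1). In S1, male fentanyl 3 was high for Prdx2 (151, the others 121 to 129), female fentanyl 1 was high for Sod1 (99.5, the others 80.8 to 85.8), female water 3 was low for Prdx4 (6.35, the others 8.01 to 8.63) and female water 5 was low for Prdx6 (124, the others 154 to 156).

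In NAc, male fentanyl 2 was high for Prdx6 (170, the others 141 to 148) and Gpx4 (125, the others 102 to 109), male fentanyl 1 was low for Sod2 (191, the others 222 to 229) and male water 2 was low for Prdx3 (49.1, the others 55.4 to 56.5). In PrL, male fentanyl 5 was high for Prdx6 (120, the others 91.0 to 95.9) and female water 1 was high for Txn1 (41.9, the others 32.0 to 34.6). In VTA, female water 1 was high for Sod2 (322, the others 273 to 286). The library left out of the comparisons, VTA male water 3, held Prdx3 at 201 CPM and Sod2 at 376 CPM, above the other VTA water libraries (57.5 to 71.3 and 243 to 322).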

How the results depend on the processing

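All 60 alternative counts of members between regions, and all 70 that left out a replicate number or 1 library, were within 1.5 times the main count, also without VBT female water 2, without VBT male water 3 or on total counts, the last 3 being alternatives chosen after seeing the data. Of the members called in VTA, no filter on low counts left 3 in males, GC offsets left 2 in males and 3 with the sexes averaged, and including VTA male water 3 left 0 in both, with Prdx3 turned to -0.10 and -0.03; leaving out 1 library gave 3 to 7 in males and 6 to 7 in the average. In S1 females DESeq2 and no filter each called 1 member (0 to 1 when 1 library was left out), and in the S1 average the outside-exon covariate called 0 (0 to 1). In NAc, where contrasts with males hold the values used to choose the genes and nothing is read from a count, the outside-exon covariate called 1 in the average, and DESeq2 called 1 in the average and 1 in male minus female; leaving out 1 library gave 0 to 1 in males (0 without male fentanyl 2, male water 3 or male water 4), in the average (1 without male fentanyl 5) and in male minus female (1 without female fentanyl 5 or female water 3). Replicate numbers did not pair the samples: deviations of same-numbered libraries correlated from -0.49 to 0.54 over 48 pairs. With the replicate block 0 members were called in the S1 average, where Sod1 lost its call, and 0 in NAc males, and Mt3 lost its call in the S1 average (0.50, edgeR adjusted p = 0.109). Counts over all genes went from 4355 to 621 (GC) and 42 (with VTA male water 3) in VTA males, from 4580 to 748 and 60 in the VTA average, from 28 to 402 (DESeq2), 59 (no filter) and 0 (exon length, outside exons) in S1 females, and from 203 to 645 (DESeq2), 121 (block), 127 (exon length) and 41 (outside exons) in the S1 average. They went from 4 to 46 (DESeq2) and 0 (block, GC, exon length, outside exons) in PrL females, from 133 to 778, 25 (block), 375 (GC) and 0 (outside exons) in the PrL average, and from 129 to 924 (DESeq2), 75 (no filter), 0 (block), 392 (GC), 62 (exon length) and 287 (outside exons) in NAc males. From 0 they went to 139 (outside exons) in VTA females and to 108 (DESeq2) and 285 (outside exons) in the NAc average, and to 462 (DESeq2) in NAc male minus female. Without 1 library the counts over all genes ran from 2659 to 4664 in VTA males, 0 to 220 in S1 females, 30 to 502 in the S1 average, 38 to 289 in the PrL average, 0 to 813 in NAc males and 0 to 449 in NAc male minus female. The causes were not tested.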
